A study of Mus musculus with 20 samples.

Results

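Chromatin regulators are the proteins that fold DNA, place chemical marks on DNA and histones, and read or remove those marks. The genes described here were chosen by name. They are the genes on either of the arrays used whose only platform symbol begins with Hmga, Hmgb or Hmgn (high mobility group proteins), Dnmt, Hdac, Sirt, Sin3, Rbbp, Smarc, Cbx, Ezh, Kdm, Kmt or Chd with a digit, together with Trim28. The choice gave 46 genes out of 6137 with a single symbol, 29 read on the array type called array A and 17 on array B. Each gene was represented by its probe set with the highest mean. The names bring in a few proteins that are not chromatin proteins in the strict sense: Rbbp6 is a ubiquitin ligase, Rbbp9 a serine hydrolase, and Sirt2 a deacetylase found largely in the cytoplasm.

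The samples were 3T3-L1 cells, an established line of mouse embryonic fibroblasts that turns into fat-storing adipocytes in culture. No genotype or added agent other than MDI, the induction protocol in standard use for this line (isobutylmethylxanthine, dexamethasone and insulin), is named in the labels. RNA from 10 time points was hybridised to 2 Affymetrix array types, which makes 20 arrays and 1 sample per time point on each type. For the tests the time points were joined into 4 stages. Preconfluent and confluent cells formed the stage before induction (n = 2). The samples taken 6, 12 and 24 hours after it are called early (n = 3). Days 2 and 3 are called middle (n = 2), and late covers days 4, 7 and 28 (n = 3). Neighbouring time points thus stand in for replicates, and the p-value of a stage comparison measures only the spread between time points of a stage. That of the trend along the series measures only the scatter of single samples around a fitted curve. A culture line followed along 1 time course limits the data to that line and course.

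Nuclear DNA is wrapped around histones, and the state of this wrapping helps decide which genes a cell can use. High mobility group (HMG) proteins bend DNA or loosen nucleosomes. Polycomb proteins and heterochromatin proteins keep genes silent, histone deacetylases and lysine-specific enzymes edit histone tails, and remodellers such as SWI/SNF slide nucleosomes. In cultured preadipocytes these proteins act while cells stop dividing at confluence, divide again after hormone induction, and then leave the cell cycle as adipocytes.

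The promoters of 3 HMG genes are shown because these genes had the largest late differences of the family. Each stretch is the 250 bases before the gene's only listed transcription start in RefSeq, build GRCm38.p6, written 5′ to 3′ on the strand of the gene. Hmgb2 lies on the plus strand at chr8:57511593-57511842. Hmga2 lies on the minus strand at chr10:120476470-120476719, and Hmgn2 on the minus strand at chr4:133967992-133968241. Capitals mark the letters CCAAT (the CCAAT box) and GGGCGG or its reverse complement (the GC box).
Hmgb2: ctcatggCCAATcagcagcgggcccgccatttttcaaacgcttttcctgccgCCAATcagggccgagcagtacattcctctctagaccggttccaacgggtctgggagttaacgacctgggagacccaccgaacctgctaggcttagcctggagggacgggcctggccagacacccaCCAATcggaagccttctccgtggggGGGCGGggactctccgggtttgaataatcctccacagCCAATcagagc
Hmga2: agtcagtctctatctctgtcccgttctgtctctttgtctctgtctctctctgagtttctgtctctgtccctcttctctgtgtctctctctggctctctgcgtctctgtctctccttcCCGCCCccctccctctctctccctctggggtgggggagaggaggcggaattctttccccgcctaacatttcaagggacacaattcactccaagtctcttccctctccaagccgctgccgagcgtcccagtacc
Hmgn2: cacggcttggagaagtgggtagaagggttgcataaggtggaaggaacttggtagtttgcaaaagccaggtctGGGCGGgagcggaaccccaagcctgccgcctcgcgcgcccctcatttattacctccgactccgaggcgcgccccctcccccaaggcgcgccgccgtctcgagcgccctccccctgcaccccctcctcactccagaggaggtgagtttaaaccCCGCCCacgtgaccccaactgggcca
The Hmgb2 stretch held 4 CCAAT boxes and 1 GC box, the Hmga2 stretch 1 GC box, and the Hmgn2 stretch 2 GC boxes. None held an E2F form, for which TTTCCCGC, TTTGGCGC and TTTCGCGC were searched.

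The same motifs were searched on both strands in the promoters of the 38 members with an entry, from 250 bases before to 50 bases after each listed start. An E2F form stood in at least 1 promoter of 5 of the 38 members (Cbx3, Dnmt1, Ezh2, Kmt5c and Smarcd1), against 2.12% of all 27025 genes and 1.84% of all 32851 promoters. CCAAT stood in 21 of 38, against 41.1% of genes and 37.4% of promoters, and GGGCGG in 30 of 38, against 38.2% and 35.7%. The members' promoters had a median GC content of 62.7% and a median of 24.5 CpG pairs, against 52.7% and 7 over all promoters, and the shares were not matched for GC content. None of the motifs contains another, although neighbouring matches can share bases. A match describes the letters and not a bound site.

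Of the 46 members, 42 gave a probe set bright enough to test, against 4108 of the 6137 genes. The 4 that did not were Chd7, Kdm5a, Kdm5d and Sin3b. Between 3100 and 3354 probe sets of array A and between 2918 and 3040 of array B exceeded the detection limit per sample. The 11 adipocyte markers on the arrays were all called higher in the late samples against those before induction (median log2 change 5.39). Of 12 preadipocyte and fibroblast markers, 4 were called lower, and all 12 had a log2 change below 0 (median -1.53). Of other cell types, the macrophage markers Adgre1, C1qa and Csf1r, the endothelial markers Cdh5, Pecam1 and Tie1, and the muscle markers Acta1, Tnni2 and Tnnt3 stayed at or below the floor in every sample. Others of these lists exceeded it in every sample, among them the macrophage markers Cd14 (1000 to 2470) and Ptprc (1000 to 1720). The endothelial marker Kdr (538 to 1010) and the muscle markers Ckm (1830 to 3670) and Myog (323 to 906) did so too. The muscle marker Mb was 398 to 651 up to day 7 and 4790 at day 28. The summed intensity of the 9 macrophage markers was 6427 to 6466 before induction and 3902 to 5857 late, that of 7 endothelial markers 2128 to 2307 and 2049 to 2189, and that of 8 muscle markers 4898 to 5436 and 5059 to 9121. Cd14 and C1qc, both macrophage markers, were called lower late, and Icam2 and Des, endothelial and muscle markers, higher. The part of these in the results was not tested.

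No member was called higher in a stage comparison, and 7 were called lower in at least 1 comparison of the late stage. Against the samples before induction, late samples were lower for Cbx6, Hdac2, Rbbp7, Hmga2 and Kdm1a. Against the early samples they were lower for Cbx6, Smarce1, Rbbp7, Hmgn2 and Hmga2. The comparisons share their late samples, so Cbx6, Rbbp7 and Hmga2 in both are not independent. Calls are limma's moderated tests with Benjamini-Hochberg adjustment over all 7582 tested probe sets, at an adjusted p under 0.05. In bulk RNA, fewer cells of a type and less RNA per cell cannot be told apart.

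Late against before induction, 5 of 42 members were lower (11.9%), against a background of 5.21% of all genes tested, and 0 were higher, against 6.13%. Late against early, 5 of 42 were lower (background 7.28%) and 0 higher (background 7.52%). Early against before induction, 0 members were lower (background 0.17%) and 0 higher (background 0.195%). At an unadjusted p under 0.05, limma gave 11 lower and 0 higher late against before, 10 lower and 0 higher late against early, and 1 lower (Kdm1a) and 0 higher early against before. Over all 4108 genes tested the unadjusted counts were 586 lower and 474 higher late against before, 613 and 536 late against early, and 205 and 169 early against before. The median log2 change of the members was -0.34 late against before (33 of 42 below 0), against -0.07 over all genes tested (2226 of 4108 below 0). Late against early, the medians were -0.28 (27 of 42 below 0) and -0.07 (2272 of 4108). Early against before, they were -0.07 and 0.00. Leaving out the preconfluent sample cut the late decreases against before from 5 to 1, while the background fell from 5.21% to 1.53%. Leaving out the 12 hour sample cut those against early from 5 to 0, while the background fell from 7.28% to 2.58%. Without the confluent, day 7 or day 28 sample the first count was 2 (background 2.34%, 3.94% and 4.92%). Without day 4 it was 3 (background 4.45%). The second count was 2 without 24 hours or day 7 (background 4.97% and 4.45%).

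**Figure D1:**
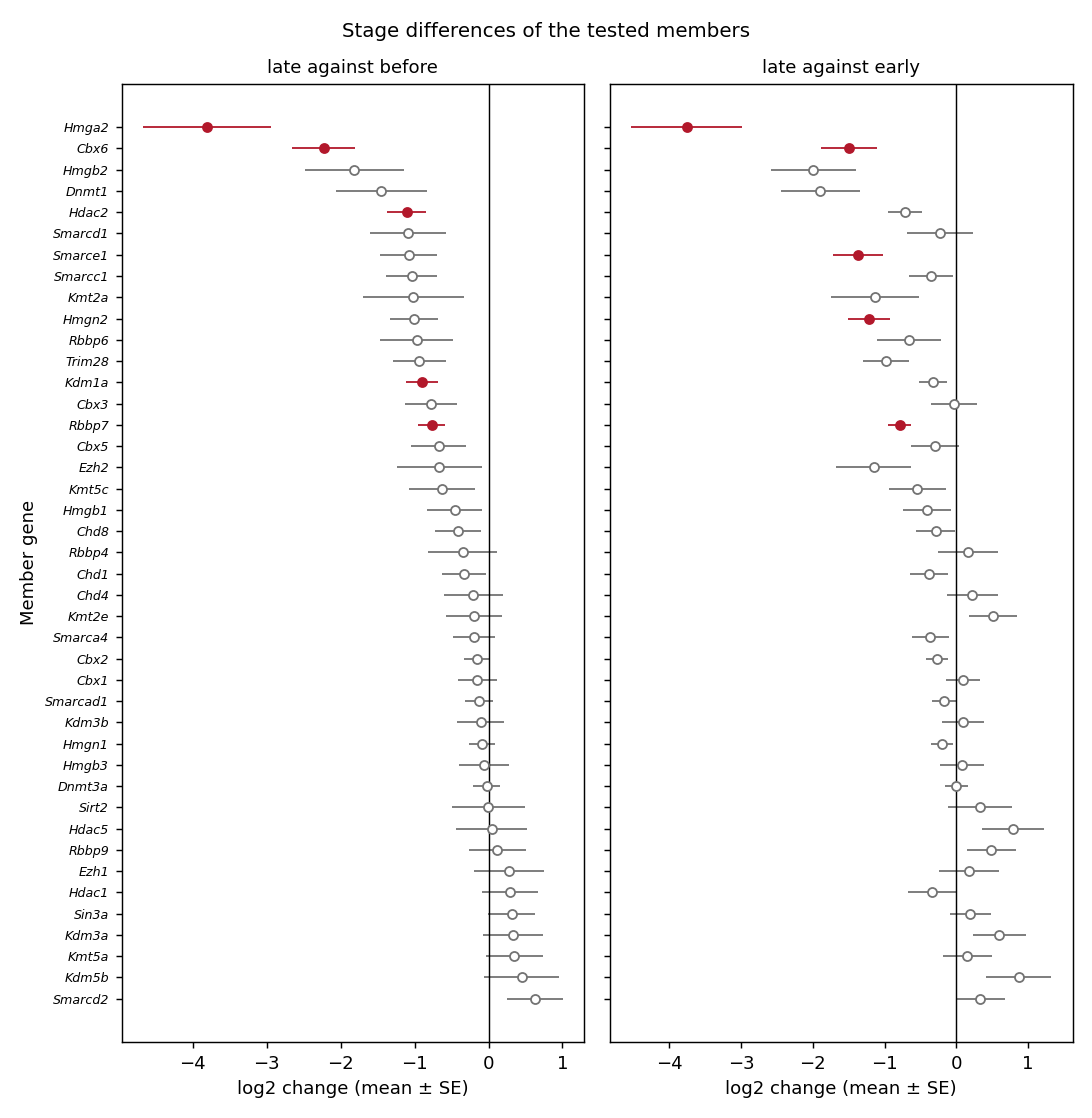
Stage differences of the 42 tested members, as the log2 change in floored intensity (points, with bars of 1 standard error from limma) of the late samples against those before induction (left) and against the early samples (right). Filled red points are members called at an adjusted p under 0.05, 5 in each panel, and all of them lie below 0.

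A description without a test gave the same direction, but it uses the same values and so is not independent of the calls. In 11 of 42 members (26.2%) every late value lay below every value before induction and early, against 10.6% of all genes tested. In 0 of 42 did every late value lie above them, against 10.9%. The 11 were Cbx6, Smarce1, Chd8, Hdac2, Trim28, Rbbp7, Dnmt1, Hmgn2, Hmga2, Kdm1a and Hmgb2. This description, and that of single steps below, was chosen after values had been seen. The highest value of a member fell most often at 24 hours, in 9 of 42 (21.4%), against 7.81% of all genes tested. It fell in 0 of 42 at day 4 or day 28, against 9.86% and 11.6% of all genes.

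**Figure D2:**
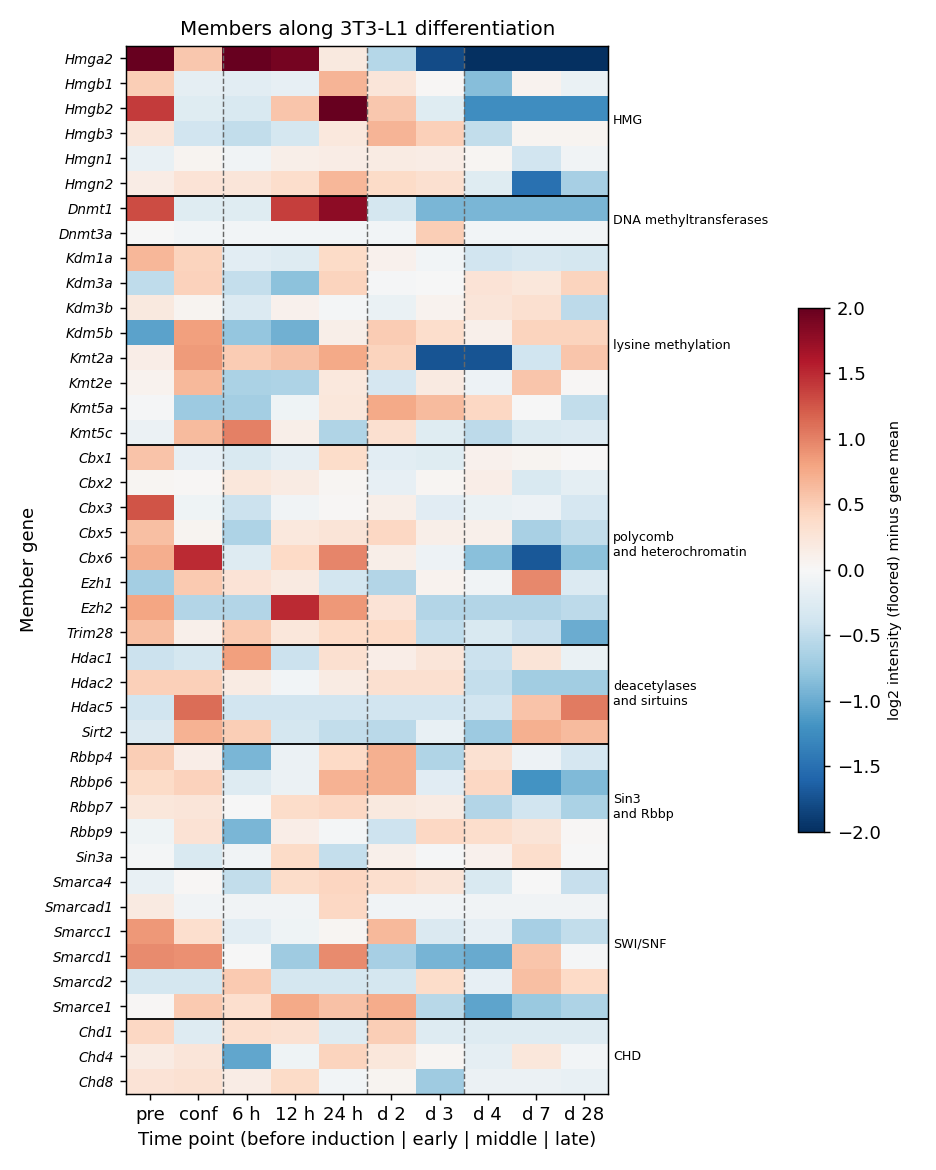
Every tested member (rows, by family) at the 10 time points (columns), coloured by log2 intensity, with low values set to the floor, minus the gene's own mean. Colours end at 2 in either direction, which Hmga2 exceeds, and dashed lines part the stages before induction, early, middle and late. Hmga2, Hmgb2 and Dnmt1 are red in preconfluent cells and at 12 and 24 hours and blue from day 4.

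Markers of dividing cells were also lower in the late samples. The summed intensity of 21 proliferation markers was 12291 to 35164 before induction, 12761 to 35324 early, 13510 to 18512 in the middle and 5801 to 7633 late. Of the 20 tested, 4 were called lower late against before (Racgap1, Tyms, Pcna and Mcm3) and 7 late against early (those and Rrm1, Rrm2 and Mcm4). All 20 had a log2 change below 0 in both comparisons (median -1.64 and -1.62). At an unadjusted p under 0.05, limma gave 14 lower late against before and 13 lower late against early. Their median difference from confluent cells was 1.51 in preconfluent cells, 1.55 at 24 hours and -1.01 at day 7, where the members' medians were 0.01, 0.03 and -0.28. The 6 HMG genes had medians of 0.65, 0.50 and -0.72 at these points. RNA integrity, read as the ratio of 3′ to 5′ control signal, also moved in some of the controls. On array A the Gapdh ratio was 1.43 to 1.61 early and 0.992 to 1.14 late, and 0.986 and 1.33 before. On array B the actin ratio was 0.824 and 0.872 before, 0.801 to 1.11 early and 0.955 to 1.05 late. The actin ratio of array A was 1.05 and 1.48 before, 1.39 to 1.45 early and 1.29 to 1.41 late. The Gapdh ratio of array B stayed between 0.722 and 0.815. At day 3 the array A ratios were 1.60 (Gapdh) and 1.72 (actin). The part of either in the members' changes was not tested.

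**Figure D3:**
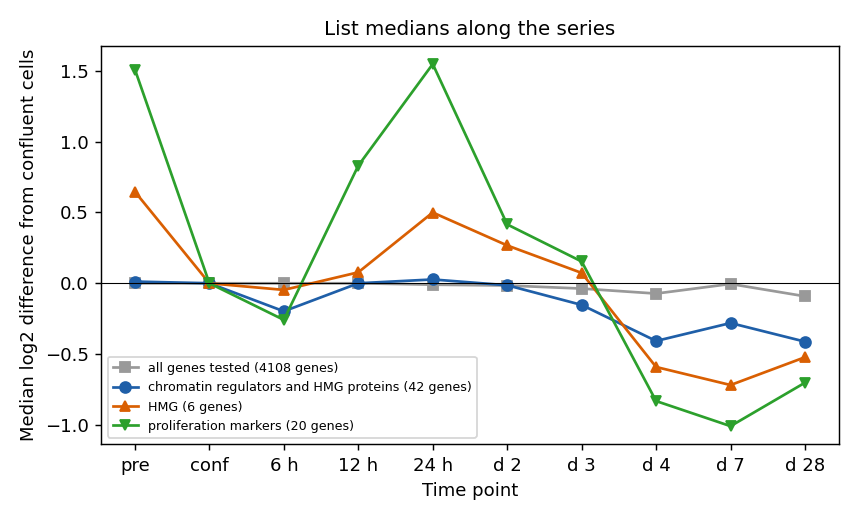
Median log2 difference from confluent cells at each time point, with low values set to the floor, for all 4108 genes tested (grey squares), the 42 members (blue circles), the 6 HMG genes (orange upward triangles) and 20 proliferation markers (green downward triangles). The green line stands at 1.51 in preconfluent cells and 1.55 at 24 hours, the blue line stays between -0.41 and 0.03, and both lie below 0 from day 4.

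Among the HMG proteins, Hmga2 changed most. It binds the minor groove of AT-rich DNA and is a known regulator of growth in mesenchymal cells. Its intensity was 5030 in preconfluent and 953 in confluent cells, 5060, 2470 and 749 at 6, 12 and 24 hours, 438 and 188 at days 2 and 3, and 77, 97 and 127 at days 4, 7 and 28. It was high in preconfluent cells and again at 6 hours, was low at confluence between them, and was lower at each time point from 12 hours to day 4. The late values, all below the floor, do not overlap those before or early. The late decrease was -3.81 ± 0.87 (log2, SE) against before induction, at least 14.0-fold (adjusted p = 0.0266), and -3.76 ± 0.78 against early, at least 13.5-fold (adjusted p = 0.0160). The trend along the series, tested with a spline and limma's F test, was called as well (adjusted p = 0.00597). The call against before was lost without preconfluent (adjusted p = 0.195, log2 change -2.61), day 4 (0.0623), day 7 (0.0746) or day 28 (0.0611) cells. The call against early was lost without the 6 hour (0.0502), 12 hour (0.0625) or day 7 (0.0539) sample. With a doubled floor the differences were -2.81 (adjusted p = 0.139) and -2.76 (adjusted p = 0.102), with a halved floor -4.47 and -4.42, and without the filter on low values the adjusted p was 0.118 and 0.0813. The trend was also lost with a doubled floor (adjusted p = 0.0650) and without the filter (adjusted p = 0.0510).

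Hmgn2, which binds nucleosomes and loosens their packing, had intensities of 4200 and 4580 before induction, 4500, 4870 and 6050 early, 4950 and 4770 in the middle and 3210, 1350 and 2410 late. All 3 late values lay below all others. The decrease was -1.22 ± 0.29 late against early, 2.33-fold (adjusted p = 0.0278), and the 2.01-fold lower level late than before was not called (adjusted p = 0.0909). A second Hmgn2 probe set gave -1.36 ± 0.33 late against early (adjusted p = 0.0311). Both are of the maker's type shared by a gene family, so related transcripts can contribute. The first call was lost without the 6 hour (adjusted p = 0.0572), 12 hour (0.0784), 24 hour (0.0848) or day 28 (0.0566) sample, and also with a doubled floor (0.0592) or without the filter (0.0984).

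Its relative Hmgn1 had the highest mean of the HMG probe sets and stayed level, with a lowest value of 9460 at day 7 and a highest of 13800 at day 2. Its log2 change late against before was -0.09 ± 0.18. The Hmgb proteins bend DNA without strong sequence preference. Hmgb2, described after its values were seen, had intensities of 967 and 312 before induction, 298, 541 and 1480 early, 536 and 313 in the middle, and 98, -80 and 8 late. It was lowest late and highest at 24 hours, and its late values did not overlap the rest. The difference late against early was -1.99 ± 0.60 (adjusted p = 0.0611) and against before -1.82 ± 0.67 (adjusted p = 0.129), neither called. Hmgb1 ranged from 1000 at day 4 to 2880 at 24 hours, and Hmgb3 from 396 at 6 hours to 900 at day 2. The further Hmgb3 probe set had a log2 change late against before of 0.49 ± 0.44, and the main one -0.06 ± 0.34.

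The step from preconfluent to confluent cells has 1 sample on either side and no test. Past a 2-fold difference, 5 of 42 members were lower at confluence (background 6.5%) and 3 higher (background 7.18%). The lower ones were Hmga2 (5.28-fold), Hmgb2 (312 against 967), Dnmt1 (2.93-fold), Cbx3 (2.53-fold) and Ezh2, whose confluent value was below the floor (2.58-fold against the floor). The higher ones were Ezh1 (2.30-fold), Kdm5b and Hdac5, the last pair from values below the floor.

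From confluent cells to 6 hours, 2 members were 2-fold higher (background 7.47%), namely Hmga2 (5.31-fold) and Hdac1 (2.25-fold). A 2-fold decrease was seen for 7 (background 7.89%), namely Cbx6 (3.36-fold), Kdm5b (3.04-fold), Hdac5, Chd4 (2.44-fold), Kmt2e (2.43-fold), Rbbp9 (2.30-fold) and Rbbp4 (2.05-fold). From 6 to 24 hours, 6 were 2-fold higher (background 7.25%), with Hmgb2 (4.97-fold) and Dnmt1 (4.10-fold) ahead of Chd4 (2.81-fold), Ezh2, Rbbp4 (2.48-fold) and Cbx6 (2.35-fold). Lower by 2-fold were 2 (background 8.13%), namely Hmga2 (6.76-fold) and Kmt5c (3.05-fold). Among these single samples, Hmgb2 and Dnmt1 were low at confluence and high at 24 hours, while Hmga2 was low at confluence, high at 6 hours and low at 24 hours.

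**Figure D4:**
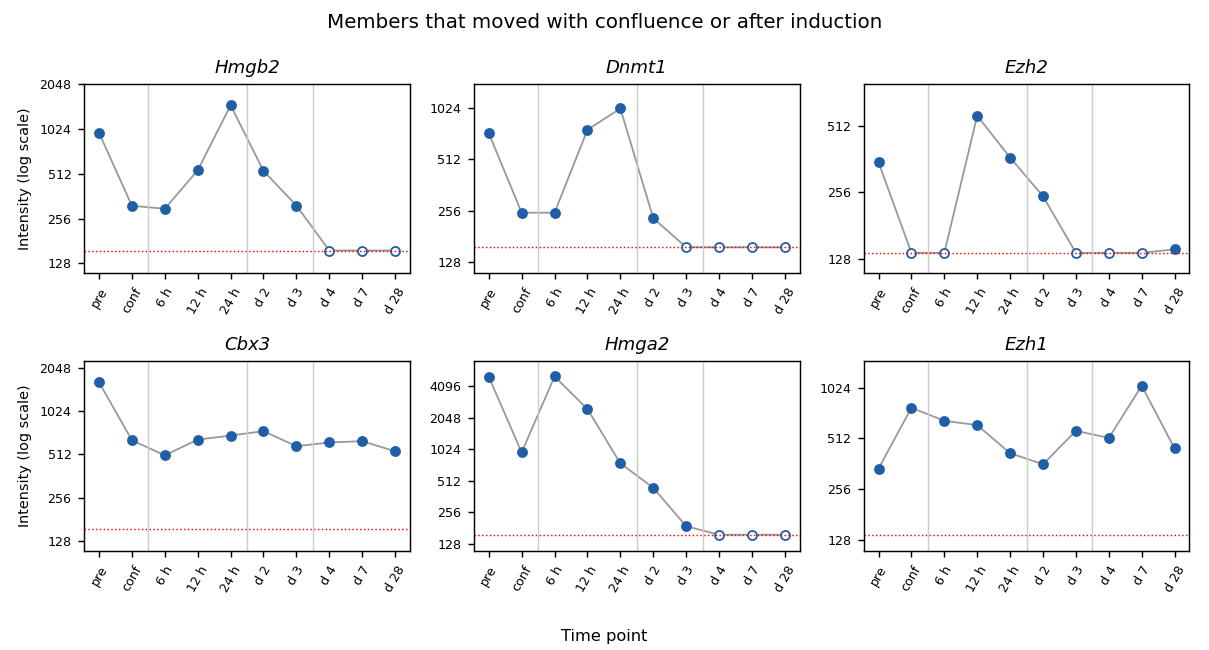
Intensity (log scale) at each time point for Hmgb2, Dnmt1, Ezh2, Cbx3, Hmga2 and Ezh1, 1 sample per point, with open circles for values set to the floor (dotted line) and vertical lines between stages. Hmgb2 and Dnmt1 peak at 24 hours at 1480 and 1020, Ezh2 at 12 hours at 572, and Hmga2 at 6 hours at 5060.

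The DNA methyltransferases are Dnmt1, which copies methylation to new strands after replication, and Dnmt3a, which sets it anew. Dnmt1 had intensities of 730 and 249 before induction, 249, 765 and 1020 early, 231 and -1 in the middle, and -94, -268 and -48 late. It was highest at 24 hours and at or below the floor from day 3, and late values did not overlap those before or early. The difference was -1.89 ± 0.55 late against early (adjusted p = 0.0551) and -1.45 ± 0.61 against before (adjusted p = 0.183), neither called. Dnmt3a exceeded the floor only in preconfluent cells (162) and at day 3 (228). The other DNA methylation proteins on the arrays were 2, of which 1 (Dmap1) could be tested and was not called.

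Among the polycomb and heterochromatin proteins, Cbx6, a reader of methylated histone H3 in polycomb complexes, was the one member called. Its intensity was 1210 and 2060 before induction, 614, 962 and 1440 early, 790 and 679 in the middle and 407, 225 and 415 late. It was highest at confluence, dipped at 6 hours and recovered by 24 hours, and all late values lay below all others. Late against before, the decrease was -2.23 ± 0.43, a 4.70-fold difference (adjusted p = 0.00856). Late against early it was -1.49 ± 0.38, 2.82-fold (adjusted p = 0.0261). The first call was lost without confluent cells (adjusted p = 0.0736), and the second without the 12 hour (0.0806), 24 hour (0.0891) or day 7 (0.0937) sample. Without the filter on low values neither was called (adjusted p = 0.0592 and 0.117), and with a doubled floor the second was not (adjusted p = 0.0616).

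Trim28, the corepressor that zinc finger proteins recruit to silence retroelements, had the highest mean of its family. Its intensity was 4590 and 3220 before induction, 4340, 3540 and 3990 early, 3950 and 2120 in the middle and 2450, 2190 and 1510 late. Every late value lay below those before and early, but no test called it (late against before -0.94 ± 0.36, adjusted p = 0.128; late against early -0.97 ± 0.32, adjusted p = 0.0706; trend, adjusted p = 0.0541). Ezh2 and Ezh1 are alternative catalytic subunits of the polycomb complex that methylates histone H3. Ezh2 had values of 351 and 114 before induction, 117, 572 and 369 early, 246 and 115 in the middle and 129, 26 and 141 late. Ezh1 had 338 and 777, then 650, 613 and 417, then 359 and 567, and then 514, 1050 and 445. Ezh2 was highest at 12 hours and Ezh1 at day 7. Their late against before changes were -0.67 ± 0.58 and 0.28 ± 0.47, and the difference between the genes was not tested.

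The heterochromatin proteins Cbx1, Cbx3 and Cbx5 bind methylated lysine of histone H3. Cbx3 was 1620 in preconfluent cells and between 504 and 742 in the other 9 samples. Cbx5 had a highest value of 1000 in preconfluent cells and a lowest of 421 at day 7, a late against before change of -0.67 ± 0.37 (adjusted p = 0.299). The further Cbx5 probe sets gave 0.51 ± 0.47 and 0.20 ± 0.41, so its probe sets disagree in sign. Cbx1 ranged from 268 to 490 and Cbx2, a polycomb reader, from 955 to 1380. Of 12 other polycomb proteins on the arrays, 10 were tested and 0 called by limma in any stage comparison, with 0 also at an unadjusted p under 0.05. Their median log2 change late against before was -0.19.

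Histone deacetylases remove acetyl groups from histone tails. Hdac2, a catalytic subunit of the Sin3, NuRD and CoREST complexes, had intensities of 307 and 308 before induction, 247, 213 and 247 early, 275 and 274 in the middle, and 158, 120 and 70 late. The late values lay below the rest, and those of days 7 and 28 below the floor. It fell by 1.10 on the log2 scale late against before (SE 0.26), at least 2.15-fold (adjusted p = 0.0224), and its change late against early of -0.72 ± 0.24 was not called (adjusted p = 0.0693). The size depends on the floor: the log2 change was -1.48 with a halved and -0.18 with a doubled floor, called in both. The doubled floor lies above all early and late values and makes them equal. This removes nearly all spread, so the call with it says little about the decrease. The call was lost without preconfluent (adjusted p = 0.0900), confluent (0.0759) or day 7 (0.0556) cells.

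No fold is given for Hdac1, its close relative, since the stages before and late both held values at the floor. Its intensity ranged from 21 to 322. Hdac5, a deacetylase that shuttles between cytoplasm and nucleus, exceeded the floor in 3 samples, confluent cells (442), day 7 (302) and day 28 (418). Sirt2 had intensities of 2170 and 4290 before induction, 3700, 2070 and 1880 early, 1810 and 2380 in the middle and 1600, 4340 and 4070 late. It was low from 12 hours to day 4 and high in confluent cells and at days 7 and 28, and its late and earlier values overlapped. Its late against before change was 0.00 ± 0.50.

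The Sin3 proteins, Rbbp4 and Rbbp7 are scaffolds and histone-binding subunits of deacetylase complexes. Rbbp6, a ubiquitin ligase, and Rbbp9, a serine hydrolase, stand in this family by name only. Rbbp7, a histone chaperone subunit shared by several complexes, had intensities of 4160 and 4210 before induction, 3530, 4590 and 4740 early, 4070 and 3990 in the middle and 2360, 2740 and 2290 late. The late values stood apart below the other 7. The decrease was -0.77 ± 0.18 late against before, 1.70-fold (adjusted p = 0.0290), and -0.79 ± 0.16 late against early, 1.73-fold (adjusted p = 0.0148). The first call was lost without preconfluent (0.103), confluent (0.0884), day 4 (0.0615) or day 28 (0.0668) cells or with a halved floor (0.0545), and the second without the 12 hour sample (adjusted p = 0.0624). The array A probe set for Rbbp7 gave -1.07 ± 0.32 late against before, and -0.74 ± 0.29 late against early, neither called (adjusted p = 0.0584 and 0.122). Both probe sets are of the family-shared type.

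Rbbp4, the paralog of Rbbp7, ranged from 805 at 6 hours to 2480 at day 2, with a late against before change of -0.35 ± 0.47. Rbbp6 had intensities of 1360 and 1430 before induction, 865, 954 and 1690 early, 1700 and 884 in the middle and 1390, 455 and 566 late. It was lowest at days 7 and 28, but the day 4 value lay among the earlier ones (late against before -0.97 ± 0.50, adjusted p = 0.257). Sin3a, the scaffold of its complex, stayed between 382 and 691. Among 9 other subunits of deacetylase complexes, 7 were tested, and the same 3 were called lower in both late comparisons. They were Gatad2a, a NuRD subunit (-1.13 ± 0.29 late against before, adjusted p = 0.0310), Sap30l, a Sin3 subunit (-1.47 ± 0.31, adjusted p = 0.0121), and Ing1, a Sin3 subunit that reads histone H3 methylation (-1.35 ± 0.30, adjusted p = 0.0238).

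SWI/SNF complexes remodel nucleosomes with the energy of ATP. Smarce1, a DNA-binding subunit, had intensities of 444 and 624 before induction, 550, 738 and 654 early, 724 and 295 in the middle and 210, 260 and 283 late. It was high up to day 2 and lower from day 3, and late values did not overlap those before or early. The decrease was -1.37 ± 0.35 late against early, 2.58-fold (adjusted p = 0.0250), and -1.08 ± 0.39 late against before, not called (adjusted p = 0.106). Its trend was called (adjusted p = 0.0366). The call against early was lost without the 12 hour (0.0930), 24 hour (0.0647), day 4 (0.0710) or day 7 (0.0612) sample, and the trend without 12 hours (0.0761), 24 hours (0.0744), day 3 (0.0785), day 4 (0.0959), day 7 (adjusted p = 0.110) or day 28 (0.0700). With a doubled floor the adjusted p was 0.0684 against early and 0.0572 for the trend, and without the filter 0.0961 and 0.126. The trend was lost as well with a halved floor (adjusted p = 0.0548) and a stiffer spline (adjusted p = 0.0630).

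The ATPase Smarca4 had the highest mean of the family and values of 1410 and 1590 before induction, 1110, 2010 and 2110 early, 1970 and 1860 in the middle and 1270, 1550 and 1130 late. Its late values overlapped those before and early (late against before -0.20 ± 0.29). Smarcd1, an accessory subunit, had 525 and 512, then 270, 166 and 527, then 172 and 144, and then 102, 400 and 268. It was high before induction and at 24 hours, and its late and early values overlapped (late against before -1.09 ± 0.52, adjusted p = 0.221). Smarcc1, a core scaffold subunit, was lower in the late samples, at 502 to 715, than in both samples before induction, at 1010 and 1450 (-1.04 ± 0.35, adjusted p = 0.0818), and overlapped the early values of 686 to 823. Of 13 other SWI/SNF and remodeller subunits, 10 were tested. Bcl7c fell late against before (-0.96 ± 0.20, adjusted p = 0.0189) and Ss18 late against early (-1.37 ± 0.28, adjusted p = 0.0152). Of the CHD remodellers, Chd4, the NuRD ATPase, had 3450 and 3640, then 1490, 2900 and 4190, then 3570 and 3140, and then 2720, 3600 and 2940. On this probe set Chd4 was lowest at 6 hours, and its late values overlapped those before and early. A further Chd4 probe set had 2570 in confluent cells and 1430 at 6 hours, and was lowest at day 4 (1330). Chd8 and Chd1 were not called either.

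**Figure D5:**
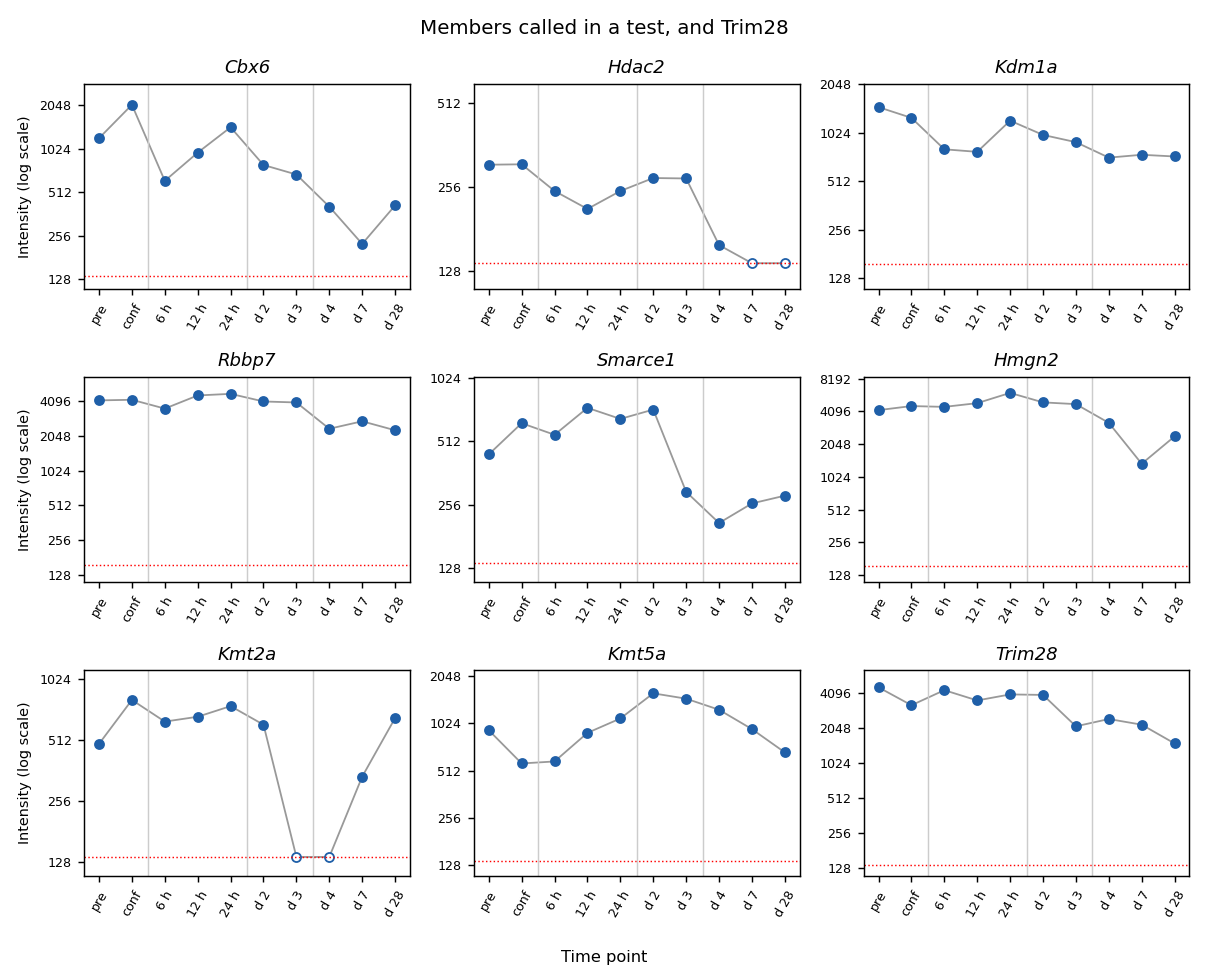
Intensity (log scale) at each time point for the members called in at least 1 test other than Hmga2, and for Trim28, 1 sample per point, with open circles for values set to the floor (dotted line) and vertical lines between stages. In Cbx6, Hdac2, Kdm1a, Rbbp7, Smarce1, Hmgn2 and Trim28 the 3 late points lie below all points before induction and early, whereas Kmt2a is at the floor at days 3 and 4 and Kmt5a is highest at day 2, at 1590.

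Enzymes that add or remove lysine methylation were 10, of which 8 were tested. Kdm1a, a demethylase of histone H3 lysine and partner of CoREST, had intensities of 1480 and 1270 before induction, 810, 781 and 1220 early, 995 and 897 in the middle and 719, 749 and 731 late. The late values were close together and below the rest. The decrease was -0.90 ± 0.21 late against before, 1.87-fold (adjusted p = 0.0314). It was lost without any one of preconfluent (0.156), confluent (0.0721), day 2 (0.0515), day 3 (0.0515), day 4 (0.0659), day 7 (0.0687) or day 28 (0.0657) cells, and without the filter (0.0723).

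Kmt5a and Kmt2a were called by the trend test alone. Kmt5a, which places a single methyl group on histone H4 lysine, had intensities of 926 and 569 before induction, 586, 891 and 1100 early, 1590 and 1470 in the middle and 1250, 941 and 669 late. It was lowest at confluence and highest at days 2 and 3, which lay above all other samples, and its late values overlapped those before and early (trend, adjusted p = 0.0458). Kmt2a, the founding mixed-lineage leukaemia methyltransferase, had 492 and 811, then 634, 670 and 756, then 612 and 99, and then 92, 339 and 660. It was below the floor at days 3 and 4 and was back among the earlier values at day 28 (trend, adjusted p = 0.0494). Both calls were lost with a stiffer spline (adjusted p = 0.244 and 0.478), a halved floor (0.0632 and 0.0761) or no filter (0.0765 and 0.220), and that of Kmt2a also with a doubled floor (0.129) or quantile normalization (0.0519). For Kmt5a every sample but preconfluent and day 7 ended the call when left out, with adjusted p-values of 0.0520 (day 28) to 0.123 (day 2), and for Kmt2a those of 24 hours (0.0695), day 3 (0.235), day 4 (0.247), day 7 (0.153) and day 28 (0.124) did. Over the trend test, 4 of 42 members were called, 9.52% against a background of 17.3%, and the members called were Hmga2, Smarce1, Kmt5a and Kmt2a.

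Kmt5c, which methylates histone H4 lysine further, had intensities of 3130 and 5280, then 6830, 3690 and 2240, then 4250 and 2860, and then 2360, 2740 and 2820. It was highest at 6 hours. Its late values lay below both values before induction and overlapped the early ones (late against before -0.63 ± 0.45, not called). Its other probe set gave 0.15 ± 0.50 and did not share the peak at 6 hours. That probe set had a mean of 157, against 3620 for the main one. It was below the floor at 6 hours (131) and highest at day 28 (453). Across the members, 12 further probe sets were on the arrays, 8 of them tested, and 4 of the 8 had the sign of the main probe set late against before. Of 10 other histone methyltransferases on the arrays, 7 were tested: Smyd2 fell late against before (-0.79 ± 0.21, adjusted p = 0.0442) and Dpy30 was called by the trend. Of 10 acetyltransferases and bromodomain readers, 7 were tested and 0 called by limma in any stage comparison. At an unadjusted p under 0.05, late against before, 1 was higher and 1 lower.

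Histones form the nucleosomes on which many of these proteins act, and histone chaperones assemble them. Of 25 on the arrays 19 were tested, with 2 higher and 2 lower late against before. Nap1l1, a nucleosome assembly protein, fell (-1.58 ± 0.30, adjusted p = 0.0122), from 2470 and 3050 before induction to 804 to 1150 late, whereas its relative Nap1l4 rose (1.24 ± 0.35, adjusted p = 0.0464), from 1290 and 1500 to 2350 to 4280. Asf1b, a chaperone of newly made histone H3 and H4, fell (-1.33 ± 0.36, adjusted p = 0.0377), and the linker histone gene H1f2 rose (1.80 ± 0.32, adjusted p = 0.00987), from 99 and 102, both below the floor, to 356 to 702. Late against early, Asf1b and Nap1l1 again fell and H1f2 rose, and Ncl (nucleolin, a nucleolar protein that binds histones) fell by 1.33 and H3f3b (a gene for the replacement histone H3.3) fell by 0.77 on the log2 scale. The median log2 change of the 19 was -0.18 late against before and -0.52 late against early. By the trend test 3 of the 19 were called (15.8%, against 17.3% of all genes tested), namely H1f2, H2ax and H3f3b. H2ax, a histone variant gene, had 4310 in preconfluent cells, was highest at day 2 (6550) and lowest at day 28 (1900).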

How the data were processed

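The deposited value of each probe set is a linear intensity, computed and scaled by the authors following the array maker's technical manual, per the labels. The software was not given in the sources used here. RNA was extracted with Trizol, and biotin-labelled cRNA was made from 10 µg, per the labels' protocols. Of the values of array A 24.2% and of array B 30.4% lay below 0, and the trimmed mean was 492.7 to 497.1 on array A and 491.7 to 496.8 on array B. The number of arrays limits the precision.

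Low values were set to a floor (136 on array A, 156 on array B, the 10th percentile with its sign turned) and log2 was taken. Control probe sets stayed out. A probe set was tested if above 182 (array A) or 156 (array B) in at least 2 of 10 samples. Stage differences and a trend (natural cubic spline, 3 degrees of freedom) were fitted per array type with limma 3.58.1 in R 4.3.3. Stages had 6 residual degrees of freedom, and p-values were adjusted over all 7582 tested probe sets. The spline ran over the order of the time points and not over elapsed time, so every step between neighbouring time points counted as equal. The code was tested on simulated data. Folds between stages are ratios of geometric stage means of floored values, written "at least" where only the dimmer stage has a value at the floor. Such a bound is the smaller of that ratio and the ratio of plain means of floored values. No fold is given where both stages have values at the floor. Names came from the platform annotation, and probe sets with several symbols were left out. Promoters came from RefSeq.

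The members and lists were chosen with earlier results of these data known. Values are given for members called in a test and, per family, those with the highest mean or widest range. Hmgb2, Ezh1, Ezh2, Cbx3, Smarcc1 and the members given by their range were named after their values were seen. Non-members are named where a list gene was called. Alternatives were the floor, the filter, quantile normalization, the mean over probe sets, each time point left out and the spline.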

Additional observations from a re-analysis of the deposited data

How the results depend on the processing

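No stage difference of a called member reversed its direction under an alternative. For left-out time points and changed floors this was fixed, since every late value of these members lay below every value before induction and early. The trend test gives no direction. Every call was lost in at least 1 of the 16 alternatives. With a halved floor 2 members had a trend (background 15.6%). With a doubled floor 1 member fell early against before (background 0.779%), 1 fell late against early (4.45%) and 1 had a trend (12.8%). Without the filter on low values 2 fell late against before (1.65%), 2 late against early (1.94%), and 0 had a trend by limma (5.67%). Leaving out 1 time point at a time gave 1 to 5 decreases late against before (background 1.53% to 5.01%). Late against early it gave 0 to 6 (2.58% to 6.67%), and for the trend 1 to 6 (12.3% to 16.7%). Quantile normalization and the mean over probe sets kept all counts within 1.5 times of those reported. The counts of members that rose stayed at 0 throughout. Causes were not tested beyond the number of probe sets and samples that the filter and the left-out time points change.

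The highest adjusted p-values of single calls were those of the trends of Kmt2a (0.478) and Kmt5a (0.244), then of Hmga2 (0.195) and Kdm1a (0.156) late against before. No paired analysis was possible because the labels give 1 sample per time point and array type and no shared replicate numbers. Values near the floor set a bound only, which limits Hmga2, Hdac2, Dnmt1, Hmgb2 and Ezh2, among others, in the late stage.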
